A study of Mus musculus with 4 samples.

Results

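Blood clotting and the dissolving of clots were followed through 9 genes in cultured stromal cells of mouse bone marrow: F3, Tfpi, Tfpi2, Thbd, Procr, Serpine2, Plau, Plat and Plaur. The members were chosen by their function and on their measured levels in these same libraries, after differences between the groups were known, so their differences between groups are given as a description with no test. Each of the 9 symbols matched 1 of the 41029 rows of the table. The measurement is RNA sequencing, in FPKM, which divides a gene's reads by its length and by the number of reads that the library has over all genes.

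The 4 libraries come from mesenchymal stem/progenitor cells of C57BL/6 mouse bone marrow, grown in MesenCult medium and replated near confluency. In 2 libraries the genotype label is Tet2-/- and in 2 it is wild type, and the Tet2 protein oxidises 5-methylcytosine, a step towards removing the mark from DNA. The labels do not give age, sex, passage, or whether replicates came from separate mice or cultures, so the spread given below is only that between these libraries. Tet2 itself stood at 11.6 and 9.70 FPKM in the libraries labelled Tet2-/-, against 7.01 and 8.39 FPKM in wild type, so the gene total does not mark the deletion, and libraries are named below only as they were labelled.

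Tissue factor, the product of F3, is the membrane protein that starts clotting when it meets factor VII. Tissue factor pathway inhibitor, from Tfpi, blocks that step, and the related Tfpi2 encodes a matrix-bound inhibitor of plasmin and other serine proteases. Thrombomodulin (Thbd) and the endothelial protein C receptor (Procr) turn thrombin towards the anticoagulant protein C pathway, and Serpine2 encodes protease nexin-1, which inhibits thrombin and plasminogen activators. Urokinase (Plau) and tissue plasminogen activator (Plat) convert plasminogen to plasmin, which cuts fibrin and matrix, and Plaur encodes the receptor that holds urokinase at the cell surface.

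The genes lie apart in the genome, so none shares a locus with another. In the mouse build GRCm38 with the GENCODE M21 annotation, Tfpi lies at chr2:84432855-84476775, Thbd at chr2:148404466-148408188 and Serpine2 at chr1:79794197-79861180, all on the minus strand, as does Tfpi2 at chr6:3962595-3988919. On the plus strand lie Procr at chr2:155751117-155755471, F3 at chr3:121723537-121735048, Plau at chr14:20836660-20843385, Plat at chr8:22757727-22782844 and Plaur at chr7:24462484-24475968. No other annotated gene overlaps any of the 9.

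Because Tet2 acts on CpG methylation, the CpG content of the promoters is shown for the gene with the largest difference, Tfpi, and for 2 genes that were low in 1 library labelled Tet2-/-, F3 and Serpine2. The sequences are the 250 bases before a RefSeq transcript start (build GRCm38.p6), 5′ to 3′ on the gene's strand, with each CG in capitals. Windows were found for 6 of the 9 genes. Tfpi has 2 such windows, for a distal start at chr2:84476760-84477009 and a proximal one at chr2:84474175-84474424, both on the minus strand. GENCODE M21 lists 8 coding transcript starts for Tfpi, 2 for F3 and 3 for Serpine2, so the windows do not cover every start. The F3 window is chr3:121723287-121723536 on the plus strand and the Serpine2 window is chr1:79858666-79858915 on the minus strand.
Tfpi, distal start: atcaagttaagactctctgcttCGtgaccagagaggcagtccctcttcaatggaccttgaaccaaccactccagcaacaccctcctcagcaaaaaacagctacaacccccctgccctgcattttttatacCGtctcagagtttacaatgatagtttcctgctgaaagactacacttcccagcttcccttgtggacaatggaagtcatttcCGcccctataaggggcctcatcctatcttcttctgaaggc
Tfpi, proximal start: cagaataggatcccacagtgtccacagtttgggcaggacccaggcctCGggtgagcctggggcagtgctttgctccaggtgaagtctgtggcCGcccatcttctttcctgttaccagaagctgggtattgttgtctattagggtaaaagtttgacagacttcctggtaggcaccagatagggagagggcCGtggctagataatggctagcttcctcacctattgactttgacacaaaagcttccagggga
F3: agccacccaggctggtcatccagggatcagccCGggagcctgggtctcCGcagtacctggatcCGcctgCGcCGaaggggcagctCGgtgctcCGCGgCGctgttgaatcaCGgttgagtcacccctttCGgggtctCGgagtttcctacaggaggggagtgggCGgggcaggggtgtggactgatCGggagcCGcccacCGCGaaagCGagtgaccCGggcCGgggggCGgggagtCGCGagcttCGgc
Serpine2: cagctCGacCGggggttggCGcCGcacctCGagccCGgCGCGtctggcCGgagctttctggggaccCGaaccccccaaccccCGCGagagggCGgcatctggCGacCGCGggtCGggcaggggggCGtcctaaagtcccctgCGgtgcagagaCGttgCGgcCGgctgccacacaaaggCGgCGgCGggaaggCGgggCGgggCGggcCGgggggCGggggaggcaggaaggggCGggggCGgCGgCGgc

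Both Tfpi windows held 3 CpGs, and 29.0% of 32851 promoter windows of that length held fewer. F3 held 24 and Serpine2 34, more than 88.0% and 96.5% of windows. The median window had 6. Procr held 13, Plaur 6, and the 3 windows of Tfpi2 held 11, 2 and 1. GGGCGG, the letters of a GC box, was found on either strand 3 times in F3, 6 times in Serpine2 and 1 time in each Tfpi window, where 32.74% of windows hold it, and its letters contain a CG. It was also found 3 times in Plaur and 2 times in the Tfpi2 window with 11 CpGs. TATAAA, the letters of a TATA box, was found on either strand 1 time in the distal Tfpi window and in none of the other 8, where 12.37% of windows hold it. TGANTCA, the letters of an AP-1 site, which is its own reverse complement, was found 2 times in F3, 1 time each in Plaur, Procr and the Tfpi2 window with 11 CpGs, and in 6.75% of all windows. These are letter matches in short windows and the libraries hold no measurement of methylation or of binding.

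Depth, cell identity and the state of the libraries bear on the values as follows. The reads over genes came to 15847340 and 21337246 in the libraries labelled Tet2-/-, against 10096878 and 17778152 in wild type. Of 15 stromal markers, 14 and 15 reached 1 FPKM in the libraries labelled Tet2-/-, against 14 and 14 in wild type. The endoglin marker Eng stood at 1.53 and 1.59 FPKM, against 110 and 102 FPKM. The 2 libraries labelled Tet2-/- stood further apart than the wild-type pair, with a median gap over 12344 genes of 0.35 on the log2(FPKM + 1) scale, against 0.08. The second of them also carried bone-cell transcripts, with 8 of 9 osteoblast markers at or above 1 FPKM, against 4 in the first and 5 in each wild-type library. In bulk RNA, fewer cells of a type and less RNA per cell cannot be told apart.

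The order of the 9 genes in wild type was nearly the same in both libraries. Serpine2 was the highest, at 358 and 351 FPKM, above 98.1% and 98.0% of the genes tested. Plau and F3 followed, and Plaur and Plat came next. Thbd and Procr changed places between the 2 wild-type libraries, so their order is within the spread. Tfpi2 and Tfpi were the lowest, and Tfpi exceeded only 0.9% and 0.5% of the genes tested. Those genes needed a mean of 1 FPKM over the 4 libraries, which Tfpi reached only through the libraries labelled Tet2-/-. Its very low place among them in wild type therefore follows from the filter. In the libraries labelled Tet2-/- Serpine2 still stood first, while Tfpi ranked at place 3 of the 9 in each.

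**Figure D1:**
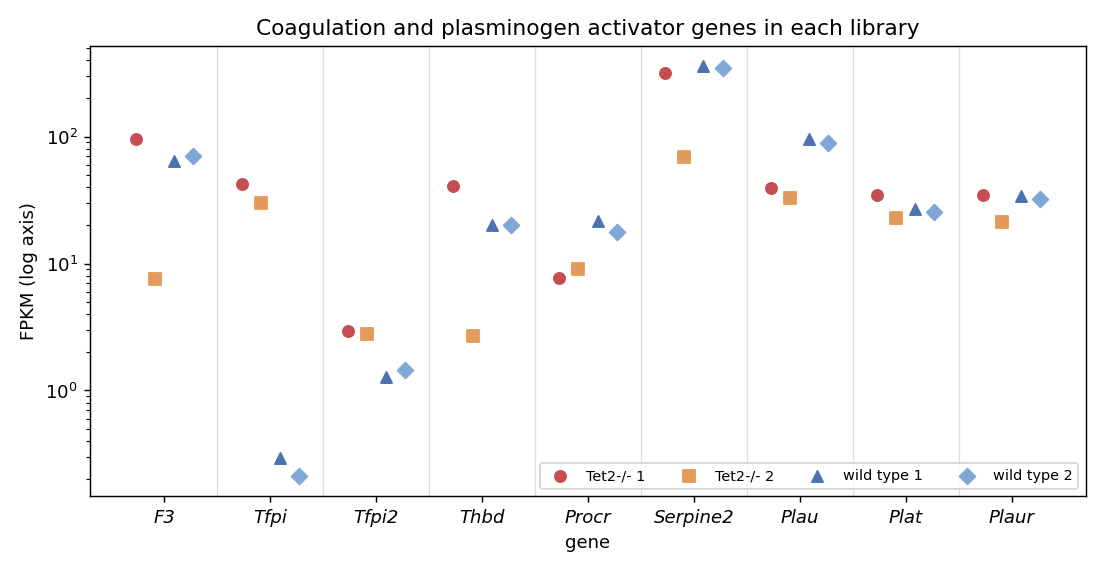
Level of each gene in each library, in FPKM on a log axis, with 1 point per library and genes in order of role. Tfpi sits at 42.4 and 30.2 FPKM in the Tet2-/- libraries and at 0.292 and 0.213 FPKM in wild type, while F3, Thbd and Serpine2 are low in Tet2-/- library 2 alone.

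Tfpi was the member that differed most, and it was close to silent in wild type. It stood at 42.4 and 30.2 FPKM in the libraries labelled Tet2-/-, against 0.292 and 0.213 FPKM in wild type. The groups do not overlap, and the libraries labelled Tet2-/- lie 168-fold and 120-fold above the wild-type mean. The reads behind these values were at least 1599 and 1534, against at least 7 and 9. If 7 and 9 are the full counts, the exact Poisson 95% intervals are 2.81 to 14.4 and 4.12 to 17.1, which cover counting error only. The ratio of the means was 144, from 36.3 ± 8.63 and 0.252 ± 0.0556 FPKM (SD, n = 2 each). On the log2(FPKM + 1) scale the difference was 4.88, the second highest of 12344 genes tested, and 6.68 with a pseudocount of 0.1. Tfpi passed the filter of a mean of 1 FPKM only through the libraries labelled Tet2-/-.

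Tfpi2 was also higher in both, at a low level. It stood at 2.94 and 2.78 FPKM in the libraries labelled Tet2-/-, against 1.27 and 1.44 FPKM in wild type. The groups do not overlap, the ratio of means was 2.11 and the log2 difference 0.71, and 12.2% of genes tested had a larger difference in either direction. The reads were at least 40 and 51, against 11 and 22.

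F3, the gene of the tissue factor that Tfpi inhibits, split the libraries labelled Tet2-/-. It stood at 95.4 and 7.51 FPKM in them, against 64.8 and 69.9 FPKM in wild type. Library 1 was 1.42-fold above the wild-type mean and library 2 was 8.96-fold below it, so the group mean of 51.5 ± 62.2 FPKM (SD, n = 2) describes neither. The difference between the groups' mean log2(FPKM + 1) values, the scale of every log2 difference given here, was -1.25, and it was 0.50 without library 2 and -3.004 without library 1. Only 0.729% of genes tested had a wider gap between the 2 libraries labelled Tet2-/-.

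Thbd followed the same pattern as F3. Thrombomodulin transcripts stood at 40.6 and 2.71 FPKM in the libraries labelled Tet2-/-, against 20.1 and 20.2 FPKM in wild type. Library 1 was 2.02-fold above the wild-type mean and library 2 was 7.44-fold below it, with a log2 difference of 0.98 without library 2 and -2.51 without library 1.

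Serpine2 was low in library 2 and close to wild type in library 1. It stood at 319 and 69.3 FPKM in the libraries labelled Tet2-/-, against 358 and 351 FPKM in wild type. The groups do not overlap, but library 1 lay only 1.11-fold below the wild-type mean while library 2 lay 5.11-fold below it. The log2 difference of -1.24 became -0.15 without library 2. With quantile normalization library 1 was level with wild type 1 and the groups touched, which left 4 of the 9 members outside the wild-type range.

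Procr differed from Thbd, its partner in protein C activation, in that both libraries labelled Tet2-/- were low. It stood at 7.71 and 9.01 FPKM, against 21.7 and 17.6 FPKM in wild type. The groups do not overlap, and the wild-type mean was 2.35-fold the Tet2-/- mean (8.36 ± 0.916 and 19.6 ± 2.92 FPKM, SD, n = 2 each; log2 difference -1.14).

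Plau, the urokinase gene, was likewise lower in both. It stood at 39.3 and 32.8 FPKM in the libraries labelled Tet2-/-, against 96.6 and 89.1 FPKM in wild type, and the groups do not overlap. The means were 36.1 ± 4.59 and 92.8 ± 5.35 FPKM (SD, n = 2 each), 2.57-fold apart, with a log2 difference of -1.34 that ran from -1.47 to -1.22 when any 1 library was left out.

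The other activator and the receptor had similar means in both groups. Plat stood at 34.4 and 23.0 FPKM in the libraries labelled Tet2-/-, against 26.8 and 25.3 FPKM in wild type. Plaur stood at 34.7 and 21.4 FPKM, against 33.9 and 32.2 FPKM. For each gene library 1 lay above both wild-type libraries and library 2 below both, and the log2 differences of 0.11 and -0.27 turned to -0.17 without library 1 for Plat and 0.07 without library 2 for Plaur. Of all genes tested, 78.6% had a larger difference than Plat and 50.5% a larger one than Plaur.

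Counted together, 2 of the 9 genes (Tfpi and Tfpi2) had both Tet2-/- values above both wild-type ones, and 3 (Procr, Serpine2 and Plau) had both below. Over all genes tested 29.4% lay above both, 24.8% below both and 54.2% on 1 side or the other, beside 5 of the 9. With 1 library labelled Tet2-/- left out, all 9 lie outside the wild-type range, where most genes do: 88.6% of genes tested without library 2 and 91.5% without library 1. Of the 9, 6 lie above it without library 2, beside 47.6% of genes tested, and 2 without library 1, beside 47.7%. At least 2-fold in every pair, on the log2(FPKM + 1) scale, Tfpi was higher, beside 0.794% of genes tested, and Plau was lower, beside 1.13%. In library 1 alone Tfpi exceeded each wild-type value at least 2-fold (3.0% of genes tested did), and Procr and Plau lay at least 2-fold under each (2.37%). In library 2 alone Tfpi again did so (5.14%), and F3, Thbd, Serpine2 and Plau lay at least 2-fold under each (5.87%). Library 1 exceeded library 2 at least 2-fold for F3, Thbd and Serpine2, beside 6.9% of genes tested. The 2 libraries lay on opposite sides of wild type for F3, Thbd, Plat and Plaur, beside 27.9%. The median log2 difference was -0.77 over the 9 genes and 0.03 over all genes tested. Since these values chose the members, the counts are given as they stand.

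**Figure D2:**
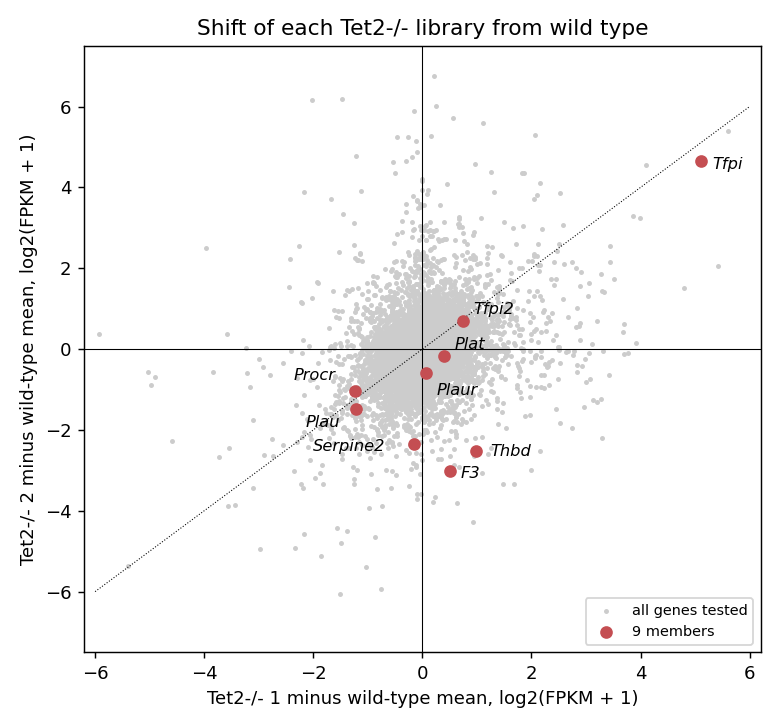
Difference of each Tet2-/- library from the wild-type mean on the log2(FPKM + 1) scale, library 1 across and library 2 up, for all 12344 genes tested (grey) and the 9 members (red). On the dotted line the 2 libraries are equal; Tfpi, Tfpi2, Plau and Procr lie near it, while F3 and Thbd lie right of 0 and below it.

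Ratios of 2 genes within a library do not depend on scaling between libraries. The ratio of Tfpi to F3 was 0.445 and 4.02 in the libraries labelled Tet2-/-, against 0.0045 and 0.00305 in wild type. Transcripts of the inhibitor thus outnumbered those of tissue factor per length in library 2, where Tfpi was high and F3 low. In wild type the ratios of Tfpi to F3 rest on at least 7 and 9 reads of Tfpi, so they are imprecise. The ratio of Plat to Plau was 0.876 and 0.700, against 0.277 and 0.284, and that of Plaur to Plau was 0.882 and 0.653, against 0.351 and 0.362. Both ratios were higher in both libraries labelled Tet2-/-, and the groups do not overlap for either. Each is divided by Plau, which was itself lower in both, while Plat and Plaur split to either side of wild type. Serpine2 stood at 4.33 and 1.24 relative to the sum of Plau and Plat, against 2.90 and 3.07, with library 1 above wild type and library 2 below it.

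**Figure D3:**
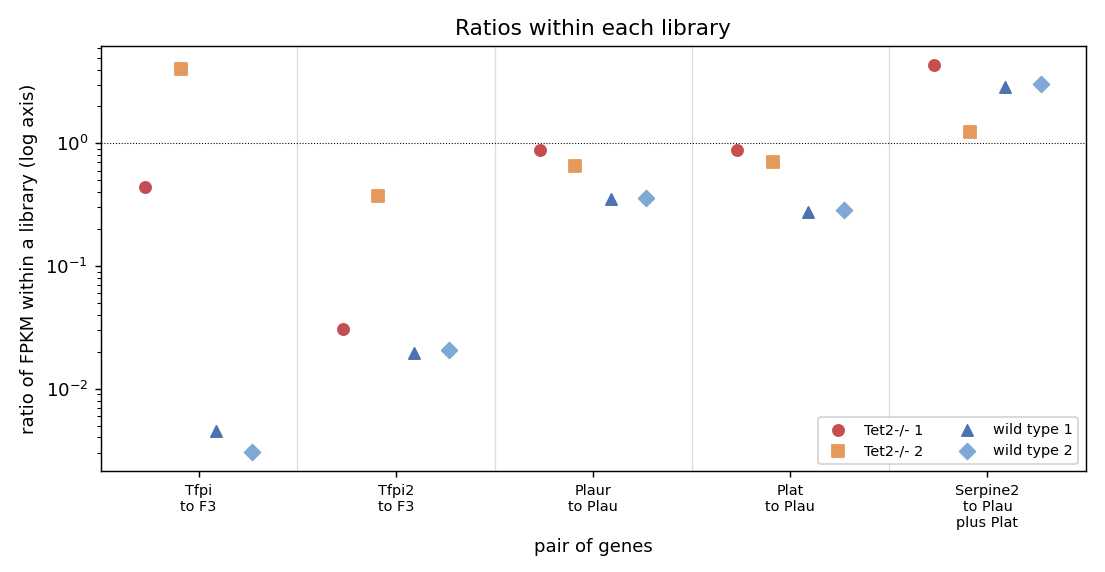
Ratio of FPKM between 2 genes, or a gene and a sum, within each library, on a log axis with 1 point per library. The ratio of Tfpi to F3 is 0.445 and 4.02 in the Tet2-/- libraries and 0.0045 and 0.00305 in wild type. The wild-type points of each pair stay close together, and are furthest apart for Tfpi to F3, which rests on few Tfpi reads there.

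The other genes of clotting and plasmin formation were taken from 4 lists set by function, 62 of whose 63 genes have a row in the table. Of these, 28 passed the filter of a mean of 1 FPKM. With limma on log2(FPKM + 1) and Benjamini-Hochberg adjustment over all 12344 genes tested, 0 of the 28 were higher and 0 were lower, and 7 had an unadjusted p under 0.05. Over all genes 0.0162% were called and 17.1% had an unadjusted p under 0.05. The smallest adjusted p among the 28 was 0.211. Without library 1 or library 2 of the Tet2-/- label, limma called 17 and 21 of the 28, beside 60.1% and 46.5% of all genes, where the lone library is assumed to vary like the close wild-type pair. Where replicates are not separate cultures, these p-values measure technical spread. Of the 62 genes, 9 were listed at 0 in every library, among them the plasminogen gene Plg and the fibrinogen genes Fga, Fgb and Fgg.

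Of 9 clotting factors and cofactors tested, 2 had both Tet2-/- values above wild type and 2 had both below, beside 29.4% and 24.8% of all genes. F13a1, the subunit of the factor that crosslinks fibrin, stood at 1.58 and 2.18 FPKM in the libraries labelled Tet2-/-, against 0.282 and 0.291 FPKM (log2 1.16, SE 0.23, adjusted p = 0.225, limma). Like Tfpi, this gene passed the filter of a mean of 1 FPKM only through the libraries labelled Tet2-/-. Vkorc1, the vitamin K reductase, stood at 10.8 and 12.8 FPKM, against 18.8 and 18.6 FPKM (log2 -0.63, adjusted p = 0.232, limma). Both lay outside the wild-type range in both libraries without passing. Gas6, a vitamin K-dependent ligand of TAM receptors, stood at 87.7 and 47.6 FPKM, against 51.2 and 48.4 FPKM. Lman1 and Mcfd2 encode the receptor that carries factors V and VIII out of the endoplasmic reticulum. Lman1 stood at 125 and 226 FPKM, against 136 and 136 FPKM. Mcfd2 stood at 183 and 108 FPKM, against 161 and 153 FPKM. The libraries labelled Tet2-/- thus lay on opposite sides of wild type for both. P4hb, protein disulfide isomerase, was the most abundant of the list at 1054 and 1111 FPKM, against 1171 and 1173 FPKM. None of these differences passed the test.

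Of 4 anticoagulant genes tested, Pros1 stood out in size without passing. It encodes protein S, the cofactor of activated protein C and of tissue factor pathway inhibitor. It stood at 123 and 189 FPKM in the libraries labelled Tet2-/-, against 73.4 and 73.9 FPKM in wild type (log2 1.04, SE 0.24, adjusted p = 0.232, limma). Both values lie above both wild-type ones, as for Tfpi. Anxa5, which covers exposed phosphatidylserine, stood at 409 and 432 FPKM, against 471 and 477 FPKM. Tmx1, a membrane thioredoxin, stood at 59.8 and 107 FPKM, against 90.7 and 97.1 FPKM.

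Of 14 plasminogen system genes tested, 7 had both Tet2-/- values below wild type and 2 had both above, beside 24.8% and 29.4% of all genes, or 9 on 1 side or the other beside 54.2%. Their median log2 difference was -0.29, against 0.03 over all genes. Serpinb2, the gene of plasminogen activator inhibitor-2, had the largest difference of the list. It stood at 3.68 and 1.03 FPKM in the libraries labelled Tet2-/-, against 15.3 and 17.1 FPKM in wild type (log2 -2.48, SE 0.45, adjusted p = 0.211, limma). S100a10 and Anxa2 form the complex that holds plasminogen at cell surfaces. S100a10 stood at 456 and 431 FPKM, against 787 and 719 FPKM (log2 -0.76, SE 0.14, adjusted p = 0.211, limma), and Anxa2 at 1274 and 1244 FPKM, against 1690 and 1576 FPKM (adjusted p = 0.316, limma). Lrp1, the receptor that clears protease-serpin complexes, stood at 1144 and 668 FPKM, against 1555 and 1464 FPKM (adjusted p = 0.314, limma). These 4 genes were lower in both libraries labelled Tet2-/-, as Plau was, and no adjusted p passed. F2r, the main thrombin receptor, stood at 77.4 and 42.7 FPKM, against 48.7 and 46.5 FPKM (adjusted p = 0.683, limma).

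**Figure D4:**
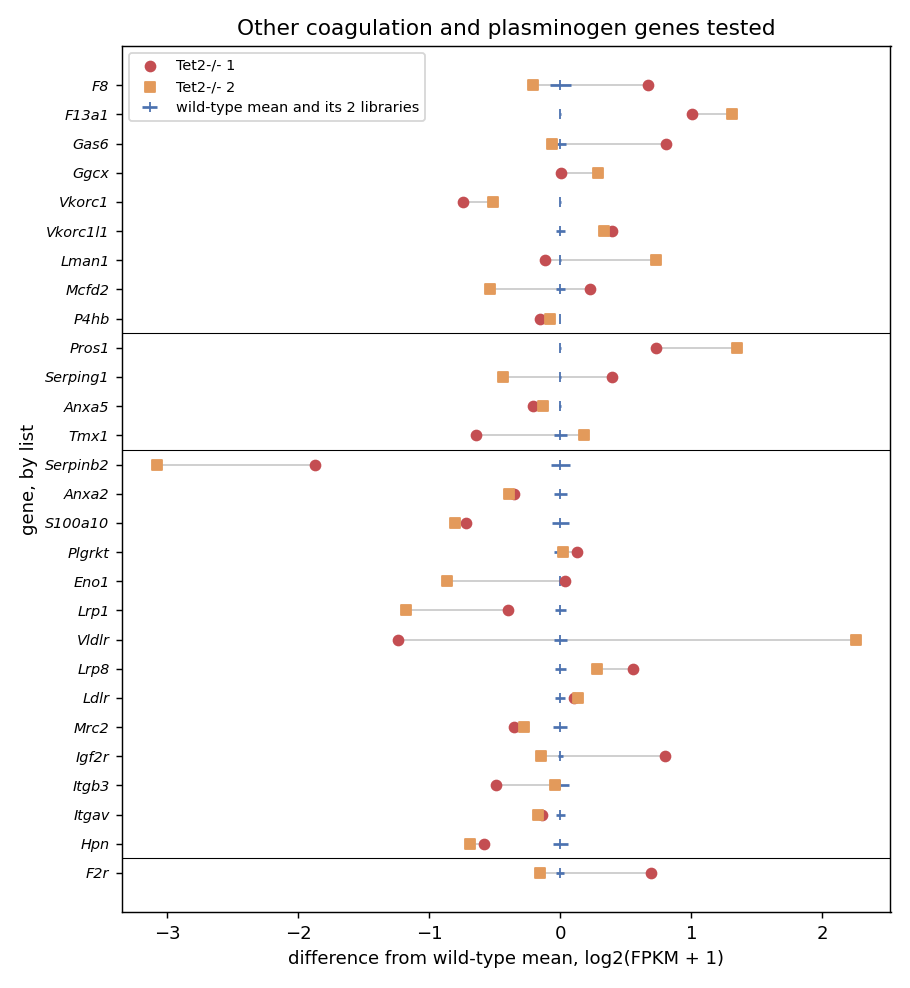
Difference of Tet2-/- libraries 1 and 2 from the wild-type mean on the log2(FPKM + 1) scale for the 28 other genes tested, in the order clotting factors, anticoagulants, plasminogen system and thrombin receptor. Blue bars span the 2 wild-type libraries; Serpinb2 lies far left in both Tet2-/- libraries, and Vldlr has 1 library on each side.

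Markers of other cells were set beside these genes, since endothelium makes Thbd, Procr and Tfpi, and macrophages make Plau and Plaur. The summed level of 12 endothelial markers was 4.32 and 3.58 FPKM in the libraries labelled Tet2-/-, against 1.65 and 1.74 FPKM in wild type, with 2 and 2 markers at or above 1 FPKM, against 0 and 0. Those at or above 1 FPKM were Egfl7 and Esam in library 1, and Egfl7 and Vwf in library 2. Esam stood at 1.10 and 0.109 FPKM in the libraries labelled Tet2-/-, and Vwf at 0.616 and 1.14 FPKM. Egfl7 was the highest in both libraries labelled Tet2-/- and in wild type 2. Cldn5 was at 0 in all 4 libraries, and Cdh5 was at 0 in Tet2-/- library 1 and wild type 2. The part of endothelial cells in the levels of Tfpi, Thbd and Procr was not tested. The summed level of 13 macrophage and myeloid markers was 85.7 and 142 FPKM, against 129 and 125 FPKM, with Lyz2 the highest and no marker at 0. This sum was lower in library 1 and higher in library 2, as was Lyz2, at 36.9 and 66.7 FPKM, against 65.9 and 63.0 FPKM. The other markers differed in direction. Ptprc, Adgre1, Csf1r and Tyrobp exceeded every wild-type value in each library labelled Tet2-/-, while Cd68, C1qb and C1qc fell short of every one. The remaining markers did neither, so the sum does not speak for them all. Plau was lower in both libraries labelled Tet2-/-, and the part of myeloid cells in its level was not tested. The summed level of 8 megakaryocyte and platelet markers was 15.6 and 12.4 FPKM, against 14.9 and 11.98 FPKM, with Gp9 at 0 in both libraries labelled Tet2-/- and no marker at 0 in wild type. Gp9 was near 0 in wild type too, at 0.112 and 0.0638 FPKM, from at least 1 read in each library. The 7 epithelial markers summed to 0.0513 and 1.66 FPKM, against 0.176 and 0.336 FPKM, with Epcam at 0 in every library. The 15 stromal markers summed to 7366 and 25685 FPKM, against 14003 and 13453 FPKM. Most of that sum was Col1a1, at 2628 and 13294 FPKM in the libraries labelled Tet2-/-, and Col1a2, at 3120 and 11481 FPKM. Other stromal markers were lower in library 2 than in library 1, namely Col3a1 (642 and 114 FPKM), Thy1 (131 and 8.27 FPKM), Pdgfra, Pdgfrb, Ly6a, Vcam1 and Cd44. The rest were higher in library 2, so the sum does not stand for the list.

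Osteoblast markers differed between the 2 libraries labelled Tet2-/- in which F3, Thbd and Serpine2 differed. The bone alkaline phosphatase gene Alpl stood at 8.21 and 501 FPKM in those libraries, against 6.75 and 6.82 FPKM in wild type, and the transcription factor gene Sp7 at 1.87 and 181 FPKM, against 5.52 and 5.73 FPKM. The summed level of all 9 was 3936 and 3904 FPKM, against 1847 and 1990 FPKM. Most of that sum was Spp1, at 3871 and 2528 FPKM, against 1775 and 1918 FPKM in wild type. Spp1 was thus higher in library 1, while every other marker of the list was higher in library 2. The gap was smaller for Runx2 (53.2 and 115 FPKM) and Phex (0.644 and 0.980 FPKM) than for Alpl and Sp7. Bglap was at 0 in Tet2-/- library 1 and wild type 2. The part of these cells or states in the low values of F3, Thbd and Serpine2 was not tested.

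The genes beside Tfpi did not share its difference. Calcrl, 7444 bases from Tfpi, stood at 1.07 and 1.67 FPKM in the libraries labelled Tet2-/-, against 1.72 and 1.84 FPKM in wild type. Ctnnd1, on the other side at 123296 bases, stood at 14.5 and 10.4 FPKM, against 15.0 and 14.4 FPKM. Camk2g and Vcl, at 42572 and 86013 bases from Plau, both lay below both wild-type libraries as Plau did, with log2 differences of -0.73 and -0.53. Calcrl also lay below both, and so did 24.8% of all genes tested. For F3 the expressed neighbour was Abcd3 (log2 0.28) and for Serpine2 it was Mrpl44 (log2 0.28). Each lay above both wild-type libraries, beside 29.4% of all genes tested. Cd93, beside Thbd, stood at 2.72 and 0.76 FPKM, against 1.36 and 1.02 FPKM. Of the genes next to Plat, Ikbkb and Ap3m2 had log2 differences of 0.17 and 0.04. Both neighbours of Tfpi2 and of Plaur and both of Procr stayed under 1 FPKM in every library.

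Likeness was measured as the distance between profiles of log2(FPKM + 1) over the 4 libraries, each centred on its mean, for members whose libraries spanned at least 2 on that scale. The genes nearest to Tfpi were Ftl1-ps1 at a distance of 0.688, then Gm6394 at 0.866 and Cyp1b1 at 1.28. Ftl1-ps1 is a ferritin light chain copy that can share reads with its parent gene. Gm6394 is annotated as a processed pseudogene and had at least 2 and 4 reads in wild type. Nearest to F3 were Hoxc13 (0.123), Lrrc32 (0.161) and Il18rap (0.314). Lrrc32 stood at 102 and 7.597 FPKM in the libraries labelled Tet2-/-, against 64.1 and 64.1 FPKM in wild type. Nearest to Thbd were Ass1 (0.0855), Ccl2 (0.124) and Cavin2 (0.128). Nearest to Serpine2 were Egfr (0.0466), Tbx15 (0.0623) and Tes (0.076). With 4 libraries, such distances describe these libraries alone.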

How the data were processed

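The authors deposited 1 table of FPKM, with 1 column for each library and every column mapped by its name to 1 title. Per the submitters' processing notes, Bowtie2 2.2.3, TopHat2 2.0.12, HTSeq 0.6.1 and the build mm10 were used, and the gene lengths behind the FPKM are not given in the sources used here. GENCODE M21 names 40535 of the 41029 identifiers. FPKM are scaled to the library's reads over genes, so abundant genes can shift the rest.

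The values are exact quotients of whole numbers. Library totals and reads per gene were worked out from them, with whole reads (tolerance 1e-06, larger in proportion for high counts) for all 25309 genes above 0. They are lower bounds where a gene's reads share a factor, and were used for depth alone.

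Differences were tested with limma 3.58.1 (R 4.3.3) and its mean-variance trend, on log2(FPKM + 1) of the 12344 genes whose mean reached 1 FPKM, two-sided, with Benjamini-Hochberg adjustment at 0.05; the code was tested on simulated data. An exact permutation test of 2 libraries against 2 cannot go below p = 0.33. Members and lists were chosen with earlier results of these data known. Named are all members, the 3 genes of each list with the highest mean, the 3 with the largest difference and F2r. Also named are the nearest coding neighbours and the 3 most alike genes. F3's and Serpine2's promoters, Lrrc32's values, the listed-at-0 genes and the genes under other observations were picked after their values were seen. Marker genes given with their own values follow none of these rules and were named with their values known. A pathway gene and a marker gene are not reported here. Promoters came from RefSeq. Alternatives were the pseudocount, the filter, 2 scalings, leaving out each library and a replicate block.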

Additional observations from a re-analysis of the deposited data

How the results depend on the processing

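With all libraries kept, 0 of 27 member differences changed sign under the pseudocount of 0.1, quantile normalization or a common median, and 25 moved by less than 0.2; those of Tfpi and Tfpi2 became 6.68 and 1.03 with the pseudocount. Leaving out 1 library at a time, the log2 difference ran from -3.004 to 0.50 for F3, from -2.51 to 0.98 for Thbd, from -2.34 to -0.15 for Serpine2, from -0.60 to 0.067 for Plaur and from -0.17 to 0.39 for Plat. In the same settings the members outside the wild-type range numbered 5 to 9, the pathway genes outside it 16 to 27 (15 with all libraries), the pathway genes past the limma threshold 0 to 21, and all genes past it 0 to 7415, against 2 with all libraries. The high counts come without library 1 or 2 of the Tet2-/- label, where the lone library is assumed to vary like the closer wild-type pair. With a pseudocount of 0.1 there was 1 gene past the threshold. The replicate numbers do not pair the libraries in the labels, and same-numbered libraries did not deviate together (correlation of deviations 0.006). A replicate block gave 0 genes past the threshold, with 1328 at an unadjusted p under 0.05 by limma, and 0 of the pathway genes. Quantile normalization, a common median and the filters left these counts of calls at 2 and 0. Members with under 100 reads in a library, Tfpi in wild type and Tfpi2 in all 4, have the least precise values.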

Other observations

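Low-level genes of the pathway, under the filter of 1 FPKM and so untested, held a few values that were picked after they were seen. F5, the gene of clotting factor V, stood at 0.450 and 0.946 FPKM in the libraries labelled Tet2-/-, from at least 53 and 150 reads, against 0.0400 and 0.0606 FPKM in wild type, from at least 3 and 8 reads. F2rl2, a thrombin receptor gene, stood at 0.126 and 0.618 FPKM, against 0 and 0.0225 FPKM. Vwf, the gene of the endothelial and platelet clotting protein von Willebrand factor, stood at 0.616 and 1.14 FPKM, against 0.744 and 0.613 FPKM. Among the genes tested, Vldlr, a lipoprotein receptor that also takes up protease-serpin complexes, stood at 5.15 and 68.4 FPKM, against 13.1 and 14.1 FPKM, so the libraries labelled Tet2-/- lay on opposite sides of wild type in the order contrary to that of F3.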
